A study of Mus musculus with 10 samples.

Results

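The 10 genes described here encode proteins of the presynaptic active zone and of synaptic vesicles: Unc13a, Unc13b, Rims1, Rims2, Bsn, Pclo, Syn1, Syn2, Syn3 and Slc17a7. They were chosen by name, with earlier results of these data known, as probe sets of the deposited value table annotated to exactly 1 gene symbol. The 10 genes held 409 of the 318760 probe sets so annotated, among 1256831 probe sets in all. Of the 409, 387 had a mean log2 value over the 10 arrays above 4.94, the midpoint of the whole table, and were used for the gene levels, and 22 lay below it. All 10 genes had enough such probe sets to be among the 16367 genes tested.

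Amygdala RNA of 3-month-old mice was hybridised to 10 GeneChip Mouse Exon arrays, 5 from wild-type C57BL/6 mice and 5 from neuropsin-/- mice. The knockout mice came from 12 generations of backcrossing to C57BL/6. Neuropsin is the secreted serine protease encoded by Klk8. RNA of 3 animals was pooled per array, from 15 animals per genotype, so each array was read as a separate pool and the p-values measure the spread between pools. The labels give neither the sex of the animals nor the exons removed, and they name no treatment of either group.

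A presynaptic terminal releases transmitter at the active zone, a dense protein scaffold facing the synaptic cleft. Bassoon (Bsn) and Piccolo (Pclo) are giant proteins that build this scaffold. The RIM proteins (Rims1, Rims2) gather calcium channels and Rab3-bearing vesicles at the release site. Munc13 proteins (Unc13a, Unc13b), recruited by RIM, prime docked vesicles for fusion. Synapsins (Syn1, Syn2, Syn3) tether vesicles in the reserve pool, and the vesicular transporter Slc17a7 (VGLUT1) loads them with glutamate, chiefly in cortical and basolateral amygdala projection neurons. The comparison asked whether the amygdala of mice labelled neuropsin-/- differs in the expression of these genes.

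Promoter sequences are shown for 3 of the genes that differ most in how they behaved below. Unc13a was the only member whose arrays did not overlap between genotypes, Slc17a7 was the member whose probe sets all lay on one side, and Syn1 differed little. The windows are the 250 bases before the annotated start, 5′ to 3′ on the gene's strand, from RefSeq on GRCm38.p6. Capitals mark exact matches on either strand to GGGCGG (the GC box), TGACGTCA (the cyclic AMP response element) or TTCAGCACC (the left part of the motif of REST, a repressor of neuronal genes). CACGTG (an E-box), TATAAA (the TATA box) and CCAAT were searched too and had no match in these 3 windows.

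Unc13a, chr8:71671758-71672007, minus strand: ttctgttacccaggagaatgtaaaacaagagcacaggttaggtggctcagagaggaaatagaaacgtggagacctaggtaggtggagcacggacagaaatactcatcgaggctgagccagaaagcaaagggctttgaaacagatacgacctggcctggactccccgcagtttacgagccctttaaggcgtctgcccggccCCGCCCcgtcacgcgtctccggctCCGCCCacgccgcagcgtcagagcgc
Slc17a7, chr7:45163671-45163920, plus strand: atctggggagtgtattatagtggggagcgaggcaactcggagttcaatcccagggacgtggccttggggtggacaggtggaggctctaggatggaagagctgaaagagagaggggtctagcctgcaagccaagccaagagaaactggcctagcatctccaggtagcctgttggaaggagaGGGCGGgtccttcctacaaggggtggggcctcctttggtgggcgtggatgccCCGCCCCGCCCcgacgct
Syn1, chrX:20920919-20921168, minus strand: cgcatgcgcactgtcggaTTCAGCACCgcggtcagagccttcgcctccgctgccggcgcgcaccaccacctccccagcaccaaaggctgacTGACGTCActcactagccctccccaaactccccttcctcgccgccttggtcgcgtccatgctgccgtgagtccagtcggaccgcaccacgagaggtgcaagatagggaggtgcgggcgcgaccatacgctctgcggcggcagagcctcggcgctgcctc

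A promoter window was held for 8 of the 10 genes, 9 windows in all since Syn2 had 2 starts. The GC box was found in 6 of the 9 windows, against 32.7% of all 32851 windows of the same length. It occurred at 2 places in the Unc13a window and at 3 in the Slc17a7 window, of which 2 overlap. The cyclic AMP response element and the left part of the REST motif were each found in 1 member window, that of Syn1, against 1.55% and 0.301% of all windows. CACGTG was found in 1 member window, that of Unc13b, against 6.02% of all windows, CCAAT in 2 against 33.8%, and TATAAA in none against 12.4%. In 8 of the 9 member windows the share of G and C bases was above the median of all windows, 52.4%. These matches describe the letters of the windows and nothing was measured about binding there.

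The targeted gene is given first. The Klk8 gene level, over its 5 probe sets above the intensity filter, was 5.87 to 6.64 on the wild-type arrays and 5.40 to 6.10 on the knockout arrays, a difference of -0.39 (SE 0.15, limma adjusted p = 0.693) that did not pass. Its unadjusted limma p was 0.0199, and 0.169 without wild-type arrays 4 and 5. Of the 5 probe sets 4 were lower, the differences ran from -1.03 to 0.25, and the genotypes did not overlap in 1. An unadjusted limma p under 0.05 was found in 2 of the 5, both lower, and 4 further probe sets of Klk8 lay below the filter. The Klk8 difference was -0.16 without wild-type arrays 4 and 5, -0.77 with the mean of the hypothalamus markers as a covariate, and -0.47 to -0.25 with 1 array left out, smallest without wild-type array 5. The groups overlapped, and whether the probe sets lie in the removed part of the gene is unknown, so these values do not establish the loss of Klk8 and the genotypes are named as labelled. Wild-type arrays 4 and 5 stood apart on principal component 1 of all genes (20.5 and 23.5, the other 8 arrays between -14.2 and 7.45). Member differences that moved by over 1.5 times without these arrays are given beside the results. All 8 markers of the basolateral amygdala and 7 of 8 of the central and medial amygdala were measured above the filter, and Crh was not.

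All 10 members had a higher mean level in the knockout, by 0.03 to 0.25 on the log2 scale, with a median of 0.13. Of all genes tested, 49.3% were higher and 50.7% lower, and their median difference was -0.0019. The members were chosen with earlier results of these data known, so their counts here and below are a description and no test. No member passed the test over all genes (limma, adjusted p 0.644 or more), where 0.0244% of genes passed. At an unadjusted p under 0.05 there were 4 members, Unc13a, Syn3, Slc17a7 and Unc13b, all higher in the knockout, against 6.98% of all genes, 2.84% higher and 4.14% lower. These 4 differences correspond to folds of 1.13 to 1.19. The 2 genotypes did not overlap in 1 member, Unc13a, against 0.923% of all genes not overlapping on the higher side and 0.623% on the lower side, 1.55% in all. In bulk tissue, a change in the number of cells of a type and a change in RNA per cell cannot be told apart.

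**Figure D1:**
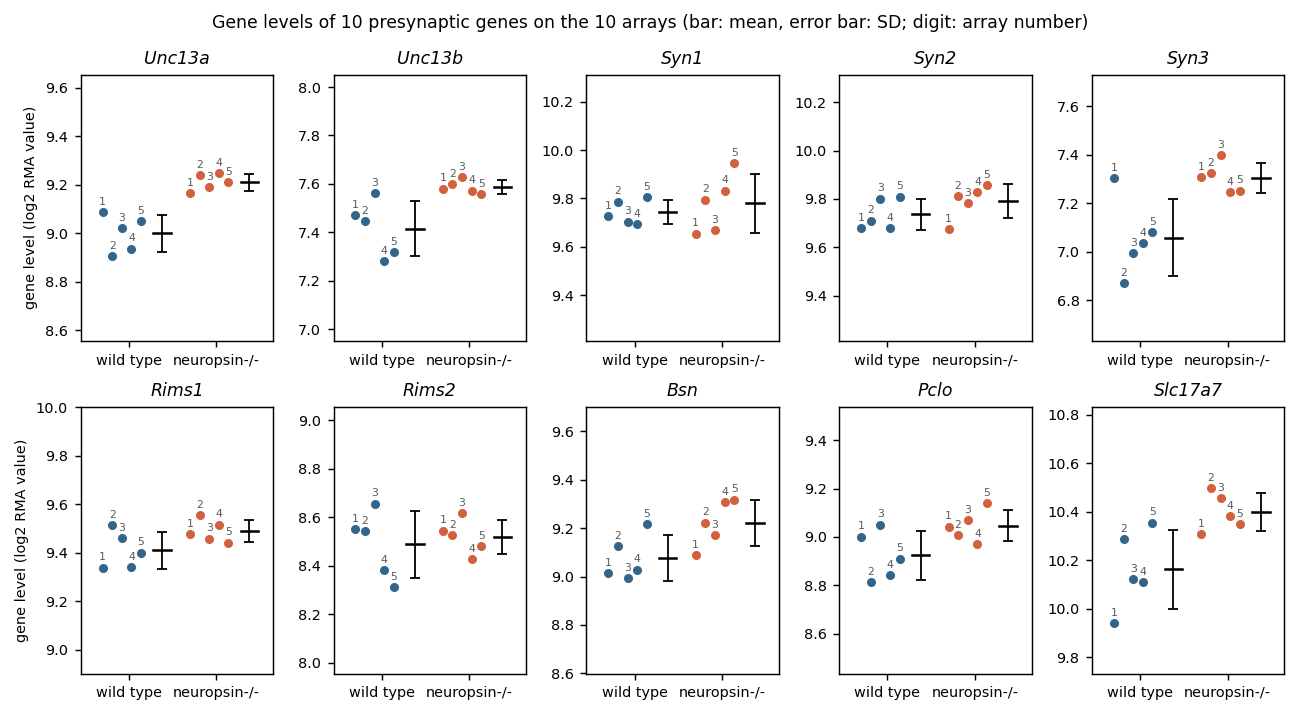
Gene level (log2 RMA value, y axis) of the 10 genes on each of the 5 wild-type (blue) and 5 neuropsin-/- arrays (orange), with the array number above each point and the mean ± SD beside each group. The y axes span the same width, and only in Unc13a do all knockout points lie above all wild-type points, the lowest at 9.16 against a highest wild-type point of 9.09.

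Of the 3 Munc13 genes measured, the means of Unc13a and Unc13b were higher in the knockout and that of Unc13c, which is no member, was lower, at -0.17 (SE 0.15), and none passed. Unc13a, the main priming factor of glutamatergic terminals, was at 9.09, 8.91, 9.02, 8.94 and 9.05 on wild-type arrays 1 to 5 and at 9.16, 9.24, 9.19, 9.25 and 9.21 on knockout arrays 1 to 5. Every knockout array thus lay above every wild-type array, and the knockout arrays were close together. The means were 9.00 ± 0.08 and 9.21 ± 0.04 (SD, n = 5 each), and the knockout exceeded wild type by 0.21 (SE 0.07, 95% confidence interval 0.07 to 0.35, limma adjusted p = 0.644). With the median over its probe sets in place of the mean, the Unc13a difference was 0.15, with an unadjusted p above 0.05.

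Unc13b, which encodes the related Munc13-2 and for which the reference table also lists Unc13a as an older synonym, was at 7.47, 7.45, 7.56, 7.28 and 7.32 on the wild-type arrays and at 7.58, 7.60, 7.63, 7.57 and 7.56 on the knockout arrays. The groups overlapped only through wild-type array 3, which lay just above knockout array 5, and wild-type arrays 4 and 5 were the lowest. The means were 7.42 ± 0.12 and 7.59 ± 0.03, a difference of 0.17 (SE 0.07, interval 0.02 to 0.33, limma adjusted p = 0.693). Without wild-type arrays 4 and 5 the Unc13b difference was 0.09. The Unc13a minus Unc13b contrast within an array differed by 0.04 between genotypes (SE 0.06, exact permutation p = 0.5, two-sided), and ran from 0.0077 to 0.076 with 1 array left out, lowest without wild-type array 2, so a difference between Unc13a and Unc13b was not detectable.

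The active zone scaffold genes did not pass either. Bsn was at 9.01, 9.12, 8.99, 9.03 and 9.22 on the wild-type arrays and at 9.09, 9.22, 9.17, 9.31 and 9.32 on the knockout arrays. Knockout arrays 1 and 3 lay within the wild-type range and wild-type arrays 2 and 5 within the knockout range. The Bsn difference was 0.15, and 0.18 without wild-type arrays 4 and 5 (with all arrays SE 0.08, interval -0.02 to 0.31, limma adjusted p = 0.721).

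Pclo was at 9.00, 8.81, 9.05, 8.84 and 8.91 on the wild-type arrays and at 9.04, 9.01, 9.07, 8.97 and 9.14 on the knockout arrays. Wild-type arrays 1 and 3 lay among the knockout arrays. The Pclo difference was 0.12 (SE 0.07, interval -0.03 to 0.28, limma adjusted p = 0.749), and 0.08 without wild-type arrays 4 and 5. Bsn and Pclo did not separate from each other, their within-array contrast differing by 0.02 (SE 0.09, exact permutation p = 0.786).

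The RIM genes overlapped between genotypes. Rims4, a short relative that is no member, was at -0.12 (SE 0.07). Rims1 was at 9.34, 9.52, 9.46, 9.34 and 9.40 on the wild-type arrays and at 9.48, 9.55, 9.46, 9.52 and 9.44 on the knockout arrays, a difference of 0.08 (SE 0.07, interval -0.07 to 0.22, limma adjusted p = 0.838), and 0.05 without wild-type arrays 4 and 5. Rims2 was at 8.55, 8.54, 8.66, 8.38 and 8.31 on the wild-type arrays and at 8.55, 8.53, 8.62, 8.43 and 8.48 on the knockout arrays. In Rims2 arrays 4 and 5 were the lowest of each genotype, and the highest of all was wild-type array 3. Its difference was 0.03 (SE 0.08, interval -0.14 to 0.20, limma adjusted p = 0.952), and without wild-type arrays 4 and 5 it was -0.06. The Rims1 minus Rims2 contrast differed by 0.05 (SE 0.07, exact permutation p = 0.516), and by 0.014 to 0.089 with 1 array left out, lowest without wild-type array 1.

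No synapsin passed the test. Syn1, on the X chromosome, was at 9.73, 9.79, 9.70, 9.69 and 9.80 on the wild-type arrays and at 9.65, 9.79, 9.67, 9.83 and 9.95 on the knockout arrays. The knockout arrays spread to both sides of the wild-type range, and the difference was 0.04 (SE 0.08, interval -0.12 to 0.20, limma adjusted p = 0.936). Without knockout array 5, the highest, the Syn1 difference was -0.0049.

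Syn2 was at 9.68, 9.71, 9.80, 9.68 and 9.81 on the wild-type arrays and at 9.68, 9.81, 9.78, 9.83 and 9.86 on the knockout arrays. The groups overlapped over most of their range. The Syn2 difference was 0.06 (SE 0.07, interval -0.09 to 0.20, limma adjusted p = 0.884).

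Syn3, the synapsin best known from developing neurons, was at 7.30, 6.87, 6.99, 7.04 and 7.08 on the wild-type arrays and at 7.31, 7.32, 7.40, 7.24 and 7.25 on the knockout arrays. Wild-type array 1 lay at the level of the knockout arrays, and the other 4 wild-type arrays lay below all of them. The means were 7.06 ± 0.16 and 7.30 ± 0.06 (SD, n = 5 each), a difference of 0.25 (SE 0.08, interval 0.07 to 0.43, limma adjusted p = 0.693). Set against Syn3 within an array, Syn1 differed by -0.21 between genotypes (SE 0.11, exact permutation p = 0.0873) and Syn2 by -0.19 (SE 0.10, exact permutation p = 0.0794). Both were 0.262 after Benjamini-Hochberg adjustment over the 9 contrasts computed. With 5 arrays per genotype 1 contrast alone cannot pass that adjustment, so whether the synapsins differ from one another is not decided. Syn1 minus Syn2 differed by -0.02 (SE 0.04, exact permutation p = 0.667).

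Slc17a7, the vesicular glutamate transporter, was at 9.94, 10.29, 10.12, 10.11 and 10.36 on the wild-type arrays and at 10.31, 10.50, 10.46, 10.38 and 10.35 on the knockout arrays. Of the wild-type arrays 4 lay below all knockout arrays, with array 1 the lowest, and wild-type array 5 lay among the knockout arrays. The means were 10.16 ± 0.16 and 10.40 ± 0.08 (SD, n = 5 each), a difference of 0.24 (SE 0.09, interval 0.05 to 0.42, limma adjusted p = 0.693). Slc17a7 is a gene of chromosome 7, which also carries Klk8. It stood 55 tested genes away from Klk8 in the order of the reference table, of 1286 tested on the chromosome. Whether this position has a part in the Slc17a7 values was not tested, and in this design it cannot be told apart from the knockout.

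With the mean of the hypothalamus markers as a covariate the Slc17a7 difference was 0.08 and that of Bsn 0.08. In the same fit the Unc13b difference was 0.32, that of Syn3 0.38, that of Rims2 0.20 and that of Syn2 0.03. With the mean of the myelin genes as a covariate Rims2 was at 0.10, Syn1 at 0.017, Syn2 at 0.023 and Slc17a7 at 0.18. No member passed after adjustment over all genes in either fit, the lowest adjusted p being 0.191. The hypothalamus marker mean did not overlap between the genotypes, so the fit with it cannot tell marker level and genotype apart.

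**Figure D2:**
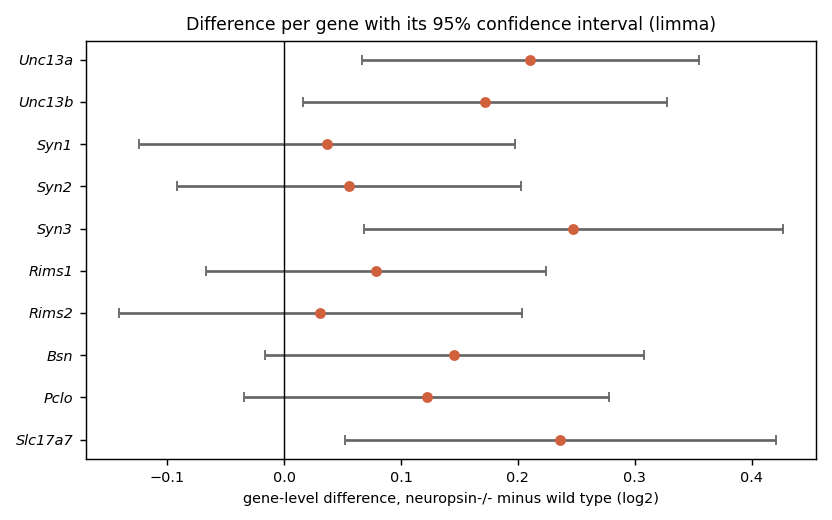
Gene-level difference (neuropsin-/- minus wild type, log2, x axis) of each member with its 95% confidence interval from limma, 5 arrays per genotype. All 10 points lie above 0, and the intervals of Unc13a, Unc13b, Syn3 and Slc17a7 leave out 0 before adjustment over all genes.

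An exon array measures a gene at many exons, so the members were also followed at single probe sets. Of the 387 member probe sets above the filter, 304 (78.6%) were higher in the knockout, against 50.3% of all 628415 probe sets tested. The 628415 include probe sets without a gene symbol, and 238335 of them belonged to the genes tested. Probe sets of 1 gene share its RNA and are not independent. None of the 387 passed (limma, adjusted over all probe sets, of which 0.00239% passed). At an unadjusted p under 0.05 there were 31 (8.01%), all higher, against 5.97% of all probe sets, 3.33% higher and 2.64% lower. The genotypes did not overlap in 14 member probe sets, again all higher, against 0.693% of all probe sets on that side and 0.409% on the lower side.

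The members differed in how many of their probe sets were higher in the knockout. This count also depends on the size of the gene-level difference and does not measure how evenly it ran along the gene. All 18 probe sets of Slc17a7 were higher, by 0.02 to 0.82, and so were 53 of 56 in Unc13a, 23 of 26 in Syn3, 37 of 42 in Bsn, 48 of 56 in Unc13b and 37 of 45 in Pclo. In Rims1 34 of 47 were higher, in Syn2 17 of 27 and in Syn1 13 of 22. The widest range was in Unc13b, from -0.54 to 1.02, and both ends were dim probe sets, at means of 5.38 and 5.83. In the upper one, 5365309, wild-type array 5 was at 3.30 and the other wild-type arrays at 5.52 to 6.15. Rims2 was evenly split, with 24 higher and 24 lower and a median of 0.01. Unc13a held 9 of the 31 probe sets with a small p and 7 of the 14 without overlap.

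Split at the median level of each gene, 143 of 192 dimmer probe sets were higher, with a median difference of 0.14 and an SD of 0.24 over probe sets. Of the brighter ones 161 of 195 were higher, with a median of 0.12 and an SD of 0.13.

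The member probe set with the smallest p was 5590394 of Slc17a7. It was at 5.22, 5.67, 5.16, 5.54 and 6.06 on the wild-type arrays and at 6.20, 6.58, 6.31, 6.19 and 6.46 on the knockout arrays, with no overlap. Its difference was 0.82 (SE 0.19, limma adjusted p = 0.683), and relative to its gene 0.58 (SE 0.13, limma adjusted p = 0.880). It was the dimmest probe set of Slc17a7, and the brightest, 5598343, differed by 0.02 (SE 0.14).

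Among the Munc13 genes, probe set 5245018 of Unc13a averaged 8.24 ± 0.33 on the wild-type and 8.97 ± 0.28 on the knockout arrays, 0.73 apart (SE 0.19). Its wild-type array 1, at 8.79, lay above knockout array 2, at 8.50. Probe set 4379483 of Unc13b was at 7.06 ± 0.27 and 7.68 ± 0.17, a difference of 0.62 (SE 0.17), with no overlap. Neither passed over all probe sets (adjusted p = 0.751 and 0.759).

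The probe set of smallest p in each other gene did not pass either. Probe set 5253761 of Syn1 differed by 0.70 (SE 0.22, limma adjusted p = 0.785) and by 0.66 relative to its gene (adjusted p = 0.944). Probe set 4984189 of Rims2 differed by 0.45 (SE 0.15, limma adjusted p = 0.806) and by 0.42 relative to its gene (adjusted p = 0.944). In the remaining genes the probe set of smallest p differed by 0.63 in Syn3, 0.47 in Syn2, 0.45 in Bsn, 0.42 in Pclo and 0.35 in Rims1. Relative use within the gene had an unadjusted p under 0.05 in 17 member probe sets (4.39%), a share near the 5.27% of all probe sets tested for it, and passed in none, where 0.00587% of all passed.

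**Figure D3:**
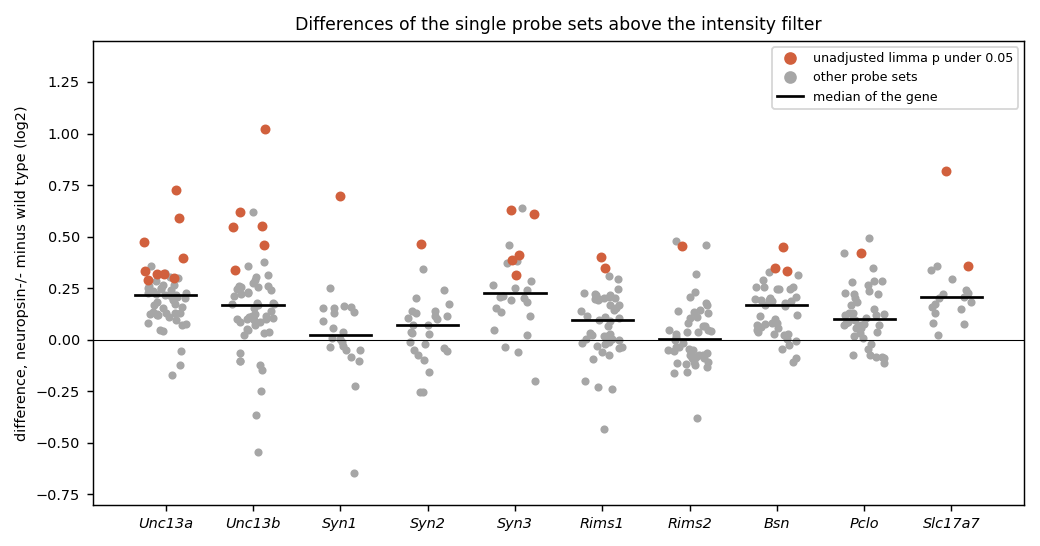
Difference (neuropsin-/- minus wild type, log2, y axis) of each of the 387 member probe sets above the intensity filter, by gene, with the gene's median as a bar and orange for an unadjusted limma p under 0.05. All 31 orange points lie above 0, and the medians run from 0.01 in Rims2 to 0.23 in Syn3.

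Other presynaptic genes were counted in lists, and no difference between lists was tested. Of 75 other presynaptic genes in 5 lists 70 were measured, and 48 (68.6%) were higher in the knockout, with a median difference of 0.05. None passed (limma), and 4 had an unadjusted p under 0.05 on the higher side and 1 on the lower side, against 2.84% and 4.14% of all genes.

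In the active zone and priming list 16 of 23 were higher, with a median of 0.09. Erc2, an active zone scaffold that binds RIM, was at 0.22 (SE 0.08), its relative Erc1 at 0.19 (SE 0.08), and Rims3, a short RIM isoform gene, was at -0.26 (SE 0.09). Of the SNARE fusion proteins and calcium sensors 12 of 15 were higher, with a median of 0.07. Nsf, the ATPase that takes SNARE complexes apart, was at 0.14 (SE 0.08), its adaptor Napb at 0.12 (SE 0.07), and the fast calcium sensor Syt2 at -0.29 (SE 0.21), all with unadjusted p-values above 0.1. Of the vesicle recycling genes 12 of 14 were higher, with a median of 0.06, led by Amph, amphiphysin, at 0.18 (SE 0.07).

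In the vesicle membrane list 8 of 12 were higher, with a median of 0.03. Its member of smallest p was Sv2b, a vesicle glycoprotein, at 0.17 (SE 0.09), while the related Sv2c was at -0.16 (SE 0.15).

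Of the other vesicular transporters and the GABA synthesis enzymes, all 6 measured were lower in the knockout, with a median of -0.17 and none at an unadjusted p under 0.05. The monoamine transporter Slc18a2 was at -0.19 (SE 0.09), the glutamate transporter Slc17a8 (VGLUT3) at -0.16 (SE 0.09) and the GABA synthesis enzyme Gad2 at -0.19 (SE 0.11). Against Slc17a8 within an array Slc17a7 differed by 0.39 (SE 0.13, exact permutation p = 0.0159, 0.143 after adjustment over the 9 contrasts). The corresponding difference was 0.43 against Slc17a6 (VGLUT2; SE 0.30, exact permutation p = 0.190) and 0.35 against the GABA transporter Slc32a1 (SE 0.20, exact permutation p = 0.127). None of the 3 contrasts passed, but 1 contrast alone cannot pass this adjustment with so few arrays. Without wild-type array 1 the 3 differences were 0.29, 0.19 and 0.20 for Slc17a8, Slc17a6 and Slc32a1. On that array Slc17a7 was at its lowest, and Slc17a8, Slc17a6 and Slc32a1 were each at their highest, of all 10 arrays.

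Marker lists for parts of the amygdala, other tissue and other cell types were set beside the members. All 6 measured hypothalamus markers were lower in the knockout (median -0.56), with Pmch at -1.88, Oxt at -0.63 and Sim1 at -0.49. Pmch, with 3 of 6 probe sets used, was at 7.59, 7.19, 7.40, 5.41 and 5.35 on the wild-type arrays. On the knockout arrays it was at 4.34 to 4.93, all below the intensity filter, which acts on the mean over all arrays. The size of the Pmch difference, the largest of the 6, is therefore uncertain. The summed log2 level of all 6 markers was 37.3 to 42.4 on the wild-type arrays and 34.5 to 36.2 on the knockout arrays. No sum without Pmch is given. All 7 myelin genes (median -0.28; summed level 57.6 to 64.2 and 57.7 to 60.5), all 6 striatal markers (median -0.23; 49.3 to 51.4 and 46.5 to 50.9) and all 7 central and medial amygdala markers (median -0.16; 51.7 to 54.0 and 50.6 to 52.0) were lower as well. Basolateral amygdala markers were higher in 6 of 8 (median 0.08; 59.7 to 62.2 and 61.5 to 62.7), and general neuronal genes in 6 of 7 (median 0.05; 61.8 to 64.4 and 63.0 to 64.1). Astrocyte genes were higher in 2 of 6 (median -0.02; 50.1 to 52.3 and 50.9 to 51.5). Microglia genes were lower in all 6, though with a median of only -0.03 (41.7 to 44.1 and 42.0 to 42.7). None of the measured markers passed over all genes (limma). The part of these markers in the presynaptic values was not tested. The covariate fits given for single genes do not decide it, since the hypothalamus marker mean did not overlap between the genotypes.

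**Figure D4:**
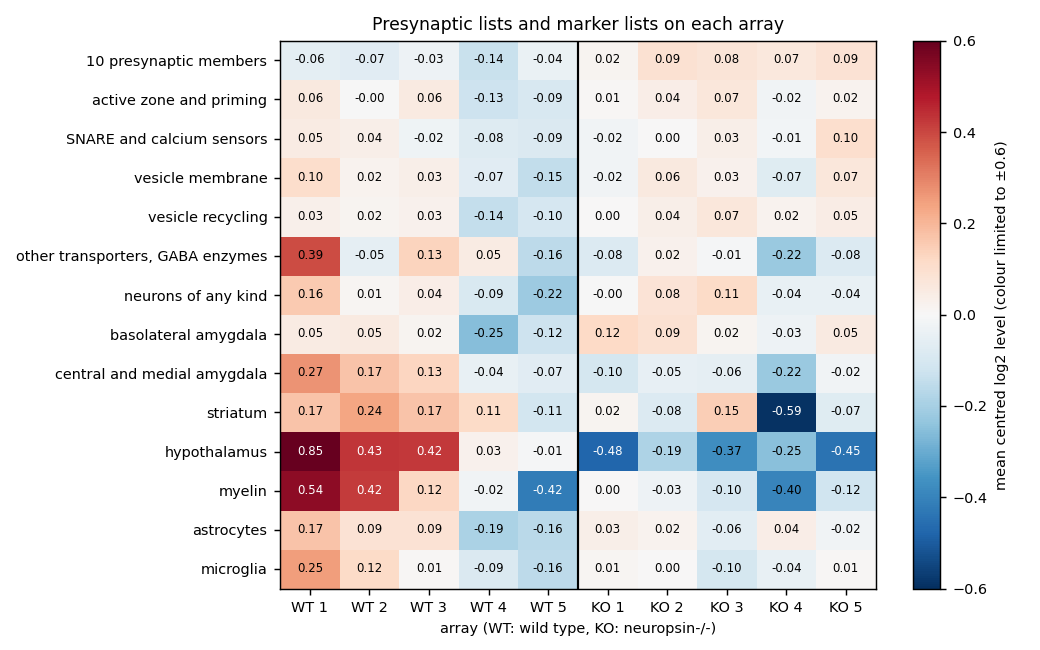
Mean log2 level of each gene list on each array (columns; WT, wild type; KO, neuropsin-/-), each gene centred on its mean over the 10 arrays. The 10 members run from -0.13 to -0.03 in wild type and from 0.02 to 0.09 in the knockout, while hypothalamus markers run from 0.85 down to -0.0049 in wild type and from -0.19 to -0.48 in the knockout.

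As a mean over the 10 genes, each centred on its own mean, the members were at -0.057, -0.068, -0.032, -0.135 and -0.042 on the wild-type arrays and at 0.016, 0.090, 0.076, 0.065 and 0.087 on the knockout arrays. Single genes did not follow this mean in every array. The highest array was a knockout array in 9 of 10 genes, most often array 5 (4 genes), and the lowest was a wild-type array in 8 of 10, the exceptions being Syn1 and Syn2 on knockout array 1. The root-mean-square distance from the mean profile was 0.06 in Syn2, Unc13a and Rims1 and 0.12 in Syn3 and Slc17a7. The 5 other genes nearest to that profile over the 10 arrays were Ablim1, Cabin1, Arhgef7, Nav1 and Eps15l1, at distances of 0.03, against a median of 0.16 over all other genes. Their differences were 0.12 to 0.16, and none passed.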

How the data were processed

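The deposited values are on the log2 scale, as their range shows, and the authors made them with RMA and Affymetrix Expression Console, both named in the submitters' processing notes. No version and no genome build is given in the sources used here, and no probe set coordinates are printed. Symbols came from the annotation of the array platform, which can be old, brought up to date with the GRCm38.p6 reference table, and 6684 probe sets with several genes were left out. Gene levels are means over a gene's probe sets above the filter, given at least 3. Probe sets (628415), genes (16367) and probe sets minus their gene level (238335, relative use) were compared with limma 3.58.1 (lmFit, eBayes, no covariates) in R 4.3.3, two-sided, with Benjamini-Hochberg adjustment over each table at a threshold of 0.05. Every difference is knockout minus wild type. Of these fits only that of genes was tried on simulated data, with shifts larger than any member difference. Contrasts within arrays for 9 gene pairs, chosen after their values were seen, underwent an exact two-sided permutation test, whose smallest possible p is 0.00794.

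The members, gene lists and tests were chosen with earlier results of these data known. The rule for named genes took every member, for each member the probe set of smallest p, up to 3 genes of smallest p in each other list, and the 5 genes of nearest profile. Slc17a6, Slc32a1, Unc13c, Rims4, the brightest Slc17a7 probe set and the Timp genes fall outside it and were chosen after their values were seen. Array medians lay between 4.95 and 5.03, and with 5 arrays per genotype their number limits precision. Alternatives were another normalization or filter, other gene summaries, array weights, another variance prior, covariates, a block, and arrays left out.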

Additional observations from a re-analysis of the deposited data

How the results depend on the processing

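Under 24 alternatives no member passed (lowest adjusted p 0.191), and 234 of 240 gene-level differences of members kept their sign. Rims2 was at -0.063 without wild-type arrays 4 and 5, -0.0099 after adding principal component 1 as covariate, -0.0077 with array weights, -0.0067 with median polish, and -0.013 to 0.073 with 1 array left out. Syn1 was at -0.0049 to 0.068 with 1 array left out. In the same leave-outs Bsn minus Pclo ran from -0.028 to 0.063 and Syn1 minus Syn2 from -0.045 to 0.0066. Syn1 minus Syn2 was 0.014 with the stricter filter, 0.022 with the median over probe sets and 0.042 with median polish. The median of the members was 0.086 without wild-type arrays 4 and 5 and 0.110 to 0.145 with 1 array left out, with 9 to 10 members above 0. Members with an unadjusted p under 0.05 numbered 1 (Syn3) with the median over probe sets and 3 to 4 with 1 array left out. Members without overlap numbered 2 after quantile normalization again, centring, the stricter filter, or without wild-type arrays 4 and 5, 3 without a filter, 0 with the median over probe sets, and 1 to 2 with 1 array left out. The shares over all genes under these settings are not given here, so neither count of members has a background. With fewer arrays a lack of overlap is also more likely in any gene.

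Over all genes 4 passed, against 8 after adding component 1 as covariate, 2 with the myelin markers, 2 with at least 1 probe set per gene, 0 with the hypothalamus markers (limma, 3528 at an unadjusted p under 0.05), and 2 to 6 with 1 array left out. Over all probe sets 15 passed, against 3 after quantile normalization, 2 without a filter, 66 with the stricter one, 102 with the trended and robust prior, 4 without wild-type arrays 4 and 5, 4 with the myelin markers, 0 with the hypothalamus markers (limma, 54117 unadjusted), and 2 to 9 with 1 array left out. Relative use passed in 14, against 4 without wild-type arrays 4 and 5, 5 with the myelin markers, 0 with the hypothalamus markers (limma, 17674 unadjusted), and 2 to 9 with 1 array left out. In the limma fit with a replicate block 3 genes, 0 probe sets (46136 unadjusted) and 2 in relative use passed, and the members' median stayed at 0.13. The block changed no member's call. Deviations of equally numbered arrays from their group means correlated at 0.08 to 0.41 over genes, all above 0, and 3 of 5 wild-type arrays correlated best with the knockout array of their number. This hints at something shared by number, but 1 pair, number 2, stayed under the minimum set for pairing and the labels name nothing shared, so the reported fit and the permutation tests use no pairing. The cause of these movements was not tested.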

Other observations

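Each synapsin gene of the mouse holds a gene for a tissue inhibitor of metalloproteinases within its span. Timp4, within Syn2, was at 8.14 to 8.42 on the wild-type arrays and at 7.88 to 8.15 on the knockout arrays, a difference of -0.22 (SE 0.08, limma adjusted p = 0.693), while its host was at 0.06. Timp3, within Syn3, was at 8.31 to 8.84 and 8.33 to 8.73, a difference of -0.07 (SE 0.11), while its host was at 0.25. These genes were chosen after their values were seen, Timp1, within Syn1, was not among the genes tested, and the difference between host and nested gene was not tested.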
